A study of Mus musculus with 6 samples.

Results

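The genes described here encode respiratory complexes II to V of the mitochondrial inner membrane, together with cytochrome c and the assembly factors that carry a complex's name. They were taken by gene symbol: the names that begin with Sdha, Sdhb, Sdhc, Sdhd or Sdhaf, with Uqcr or Uqcc, with Cox and a digit or with Atp5, plus Cyc1 and Cycs. The rule found 60 of the 12534 genes in the table, and all 60 were among the 12106 genes tested. They comprise 41 structural subunits, 16 assembly factors, cytochrome c itself and 2 genes that match by symbol only, Atp5s and Atp5sl. By complex, 8 belong to complex II, 13 to complex III with cytochrome c, 22 to complex IV and 17 to complex V.

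RNA-Seq compared 4T1 WT cells with 4T1 GPD2 KO cells, 3 libraries of each, to look for changes in metabolism that follow the loss of GPD2. 4T1 is a murine mammary carcinoma line of BALB/c origin, labelled wildtype in one group and Gpd2 -/- in the other, and both were grown in RPMI medium with no other agent named. The labels name the GPD2 guide RNA and Cas9 vector for all 6 samples, so whether the WT cells had met the vector is not known. The KO cells came from a single-cell-derived clone, so the genotype and the clone cannot be told apart. The methods describe samples in general as independent in the biological sense, but neither they nor the labels say how the RNA-Seq libraries of a group were grown, and the KO libraries share 1 clone. The p-values measure the spread between these libraries. The total counts were 51186527 to 59846170 per library. The genes of complexes II to V took 0.869% to 0.878% of the counts in the WT libraries and 0.922% to 0.955% in the KO libraries.

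Gpd2 encodes the mitochondrial glycerol-3-phosphate dehydrogenase, an enzyme on the outer face of the inner membrane that passes electrons to ubiquinone. Complex II (succinate dehydrogenase) feeds the same ubiquinone pool from the tricarboxylic acid cycle. Complex III takes electrons from ubiquinol to cytochrome c, complex IV passes them to oxygen, and complex V (ATP synthase) uses the proton gradient that results. Apart from complex II, each of these assemblies combines subunits encoded in the nucleus with a few encoded by mtDNA, and several nuclear subunits exist as isoforms used in different tissues.

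Levels are given as TPM, a transcript abundance scaled by gene length and by library, which can be set side by side between genes. Changes are given as log2 fold changes of KO over WT from the counts, with their standard errors (SE). A gene was called when its adjusted p in the quasi-likelihood test of edgeR, with Benjamini-Hochberg adjustment over all 12106 genes, was under 0.05. Adjusted p below has this meaning unless a permutation test, an alternative setting or a left-out library is named with it. Gpd2 stood at 51.6, 52.1 and 52.0 TPM in the WT libraries and at 9.90, 9.95 and 9.88 TPM in the KO libraries. Its log2 fold change was -2.39 (SE 0.032, adjusted p = 5.12e-11), so the RNA was reduced, not absent, in the cells labelled as knockout. The paper reports that GPD2 protein and its enzyme activity were absent from its KO clones, which RNA levels do not measure.

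Of the 60 genes, 42 were called, 29 of them higher and 13 lower in KO cells, and 18 did not pass. That is 70.0% of the genes, where 66.8% of all genes tested were called, so the number of calls does not set these genes apart. By direction, 48.3% of the 60 were higher and 21.7% lower, against 33.5% and 33.3% of all genes. The same shares of all genes are the background for the counts by complex and by list below. The changes were small: 38 of the 42 called genes differed by less than 1.5-fold, and the median log2 fold change was 0.10, where that of all genes tested was -0.00. With a fold of at least 1.5 required as well, the called genes were Sdhaf1, Sdhaf4, Cox6a2 and Cox7b2, 4 of 60 against a background of 19.7%. Under the thresholds of the study, a fold of at least 2 and an exact test p under 0.05, 3 genes passed and the background was 8.64%. The TPM of WT and KO libraries did not overlap for 44 of the 60, a pattern that 70.7% of all genes tested showed.

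**Figure D1:**
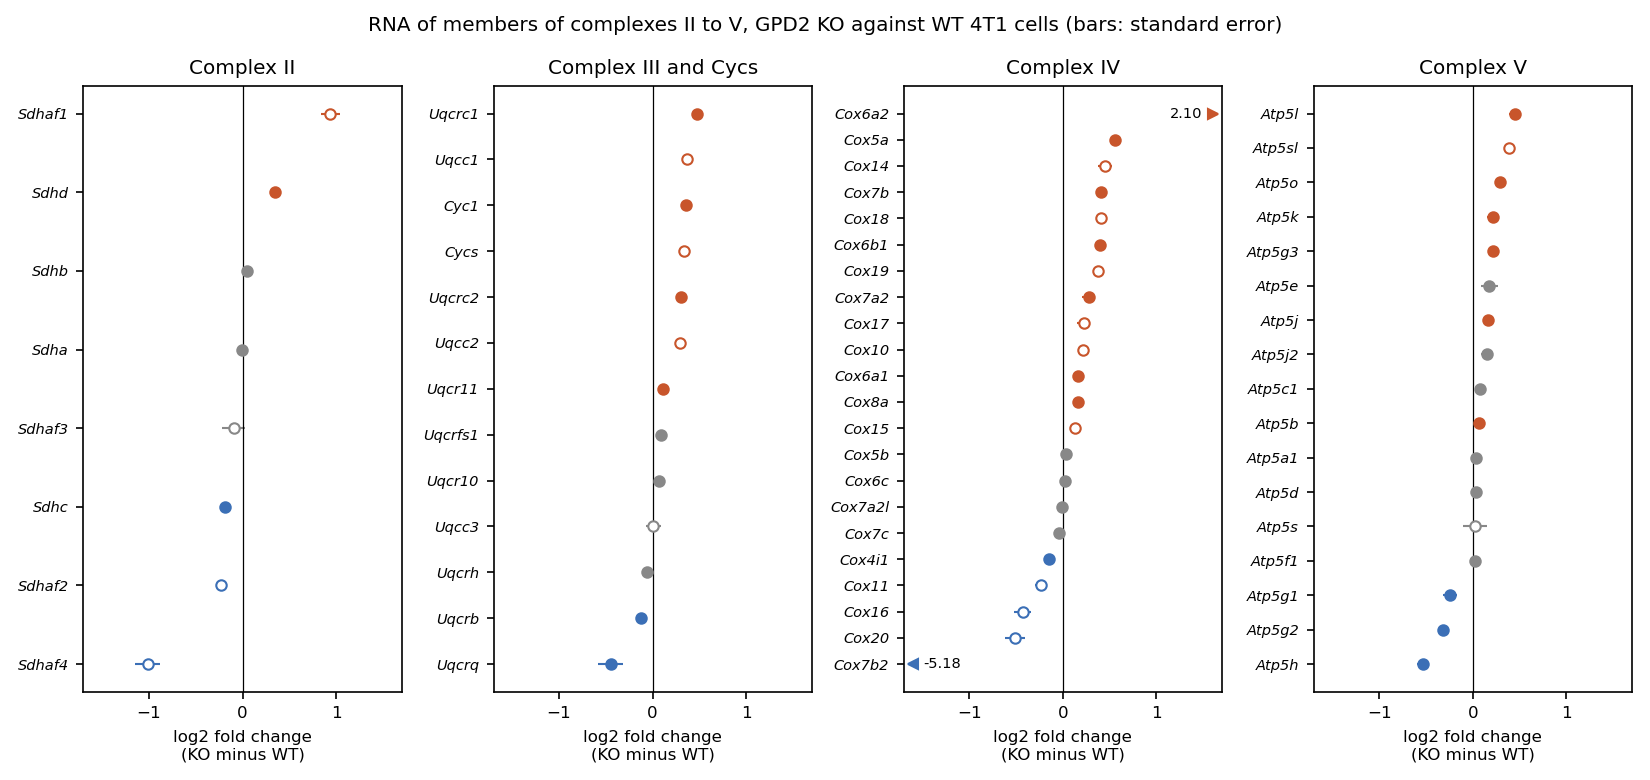
Log2 fold change of GPD2 KO over WT for each of the 60 genes, by complex, from counts (3 libraries a group; horizontal bars are standard errors). Filled circles are structural subunits and open circles are assembly factors, cytochrome c or genes matched by symbol only; red marks genes called higher, blue genes called lower and grey genes not called, and the triangles mark Cox6a2 (2.10) and Cox7b2 (-5.18), which lie beyond the axis.

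The subunits were among the abundant RNAs of the cells. Summed over the 41 subunits, the level was 17863 ± 143 TPM in WT and 19250 ± 407 TPM in KO cells (SD, n = 3 each), a ratio of 1.078. By complex, the summed TPM went from 950 ± 4.13 to 1021 ± 22.0 TPM for complex II, from 2718 ± 40.7 to 2958 ± 81.4 TPM for complex III, from 5606 ± 67.4 to 6159 ± 148 TPM for complex IV and from 8590 ± 113 to 9112 ± 200 TPM for complex V. In each of the 4 sums, every KO library lay above every WT library. Such separation was common for single genes, at 70.7% of all genes tested. It does not mean that the subunits of a complex rose together. In complex II, Sdhd rose and Sdhc fell, and the median log2 fold change of its 8 genes was -0.05. These sums are descriptions over genes chosen together and carry no test.

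**Figure D2:**
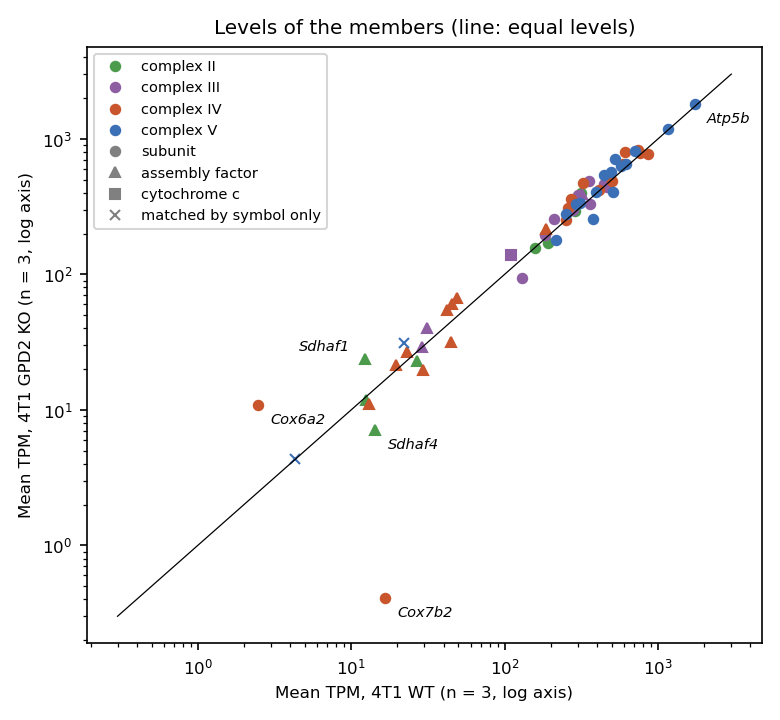
Mean TPM in KO against WT libraries for the 60 genes (n = 3 each, both axes logarithmic, the line marks equal levels). Most genes lie along the line, whereas Cox7b2 lies far below it, at 16.5 TPM in WT and 0.407 TPM in KO cells, and Cox6a2 above it, at 2.47 and 10.8 TPM.

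Both genes that lie farthest from the line are second isoforms of a complex IV subunit, and the c subunit of complex V is made from 3 genes that moved in different directions. Reads of such copies can be told apart only where their sequences differ, so coding sequence is shown for these families (GRCm38, the assembly of mm10, from GENCODE transcripts), cut to the last 300 bases for Cox6a1. In the first 2 pairs, capitals mark bases that differ from the other isoform or have no partner in the alignment.
Cox6a1, chromosome 5: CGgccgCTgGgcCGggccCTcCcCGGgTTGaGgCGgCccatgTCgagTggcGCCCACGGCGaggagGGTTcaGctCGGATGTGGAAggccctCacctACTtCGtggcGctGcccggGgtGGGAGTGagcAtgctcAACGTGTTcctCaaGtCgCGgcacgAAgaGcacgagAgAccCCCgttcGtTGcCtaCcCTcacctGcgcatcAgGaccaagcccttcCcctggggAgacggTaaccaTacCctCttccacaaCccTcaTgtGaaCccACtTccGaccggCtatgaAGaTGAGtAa
Cox6a2, chromosome 7: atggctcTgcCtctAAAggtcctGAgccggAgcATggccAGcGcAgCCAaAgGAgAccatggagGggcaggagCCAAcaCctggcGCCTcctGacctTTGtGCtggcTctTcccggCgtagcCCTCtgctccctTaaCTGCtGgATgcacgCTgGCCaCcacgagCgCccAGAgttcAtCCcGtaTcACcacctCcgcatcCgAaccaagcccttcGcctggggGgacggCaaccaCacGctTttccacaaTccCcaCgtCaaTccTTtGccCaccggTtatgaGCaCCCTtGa
Cox7b, chromosome X: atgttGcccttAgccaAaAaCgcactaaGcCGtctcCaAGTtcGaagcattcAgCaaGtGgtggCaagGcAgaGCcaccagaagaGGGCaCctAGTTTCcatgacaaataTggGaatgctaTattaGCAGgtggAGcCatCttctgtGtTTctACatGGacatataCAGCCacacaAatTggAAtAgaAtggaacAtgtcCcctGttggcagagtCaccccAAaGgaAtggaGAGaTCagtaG
Cox7b2, chromosome 5: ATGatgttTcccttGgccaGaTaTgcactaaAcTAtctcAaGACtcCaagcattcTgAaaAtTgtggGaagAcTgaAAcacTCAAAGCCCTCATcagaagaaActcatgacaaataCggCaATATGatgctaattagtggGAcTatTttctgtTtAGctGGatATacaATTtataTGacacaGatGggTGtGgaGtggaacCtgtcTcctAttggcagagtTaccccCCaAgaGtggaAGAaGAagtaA
Cox6a1 and Cox6a2 were identical at 70.7% of 280 aligned bases, with no identical run longer than 12 bases, and Cox7b and Cox7b2 at 74.2% of 225 aligned bases, with none longer than 11. The reads were far longer than these runs, so the coding parts of the isoforms can be told apart.

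The c subunit genes encode the same ring-forming protein behind different import sequences. The last 237 bases of each coding sequence follow, the longest stretch up to the stop codon in which the codons of all 3 genes give the same residues, with capitals at the positions where the bases are not all alike.
Atp5g1, chromosome 11: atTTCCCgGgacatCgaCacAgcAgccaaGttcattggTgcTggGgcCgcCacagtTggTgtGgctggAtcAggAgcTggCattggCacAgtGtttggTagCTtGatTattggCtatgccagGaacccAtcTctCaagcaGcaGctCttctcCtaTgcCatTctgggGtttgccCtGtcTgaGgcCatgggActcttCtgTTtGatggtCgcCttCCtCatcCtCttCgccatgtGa
Atp5g2, chromosome 15: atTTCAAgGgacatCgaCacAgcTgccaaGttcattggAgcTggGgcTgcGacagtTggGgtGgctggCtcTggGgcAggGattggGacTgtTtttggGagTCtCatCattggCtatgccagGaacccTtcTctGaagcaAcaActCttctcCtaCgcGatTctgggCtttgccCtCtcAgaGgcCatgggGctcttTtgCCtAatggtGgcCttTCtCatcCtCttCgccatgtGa
Atp5g3, chromosome 2: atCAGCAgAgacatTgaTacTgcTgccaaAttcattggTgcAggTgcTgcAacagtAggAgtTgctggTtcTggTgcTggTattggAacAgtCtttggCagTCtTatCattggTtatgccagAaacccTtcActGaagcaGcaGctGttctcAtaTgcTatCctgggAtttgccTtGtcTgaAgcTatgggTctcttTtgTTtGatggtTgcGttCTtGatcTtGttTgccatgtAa
All 3 genes had the same base at 173 of the 237 positions, and the stretch encodes 78 residues before the stop codon. It holds the whole ring-forming protein, so the 3 RNAs differ in the gene they come from and not in the mature protein they encode.

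In complex II, the 4 subunits did not move together. Sdha, the flavoprotein that oxidises succinate, stood at 156, 161 and 153 TPM in WT and 162, 150.4 and 157 TPM in KO libraries. Its log2 fold change was -0.00 (SE 0.038, adjusted p = 0.949). Sdhb, the iron-sulfur subunit, stood at 275, 294 and 289 TPM and at 292, 294 and 299.9 TPM, with a log2 fold change of 0.05 (SE 0.040, adjusted p = 0.309). Neither passed the test, and the libraries of the 2 groups overlapped for both.

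The membrane anchors, which hold the heme and help to form the ubiquinone site, went opposite ways. Sdhc stood at 196, 187 and 195 TPM in WT and fell to 173, 169 and 165 TPM in KO libraries (log2 fold change -0.19, SE 0.038, adjusted p = 0.00173). Sdhd stood at 319, 307 and 317 TPM in WT and rose to 419, 388 and 395 TPM (0.35, SE 0.039, adjusted p = 3.52e-05). The groups did not overlap for either anchor, although both proteins enter the complex as one pair.

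The assembly factors of complex II held 2 of the 4 largest changes. Sdhaf1, which helps to insert the iron-sulfur clusters into the Sdhb protein, stood at 12.6, 11.5 and 12.96 TPM in WT and at 21.5, 25.9 and 23.4 TPM in KO libraries, a rise of 0.94 on the log2 scale (SE 0.098, adjusted p = 2.31e-05). Sdhaf4, which assists the Sdha protein before it joins Sdhb, stood at 14.8, 12.9 and 15.4 TPM in WT and at 7.15, 6.45 and 7.65 TPM in KO libraries, a log2 fold change of -1.01 (SE 0.131, adjusted p = 9.11e-05). Every KO library was above every WT library for the first and below for the second. Sdhaf2, needed to attach FAD to the Sdha protein, stood at 26.6, 27.2 and 26.4 TPM in WT and fell to 23.0, 21.2 and 24.1 TPM (-0.23, SE 0.049, adjusted p = 0.00229). Sdhaf3, which works with Sdhaf1, had a log2 fold change of -0.10 (SE 0.120, adjusted p = 0.499).

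Sdhaf1 (Entrez 68332) lies on the minus strand of chromosome 7 from 30321406 to 30323895, and 69.6% of its exon bases are shared with a gene on the opposite strand, E130208F15Rik. Sdhaf4 (Entrez 68002) lies on the minus strand of chromosome 1 from 23995939 to 24005656. The library kit kept the strand, but the sources used here do not say whether the counting used it, so reads of Sdhaf1 and its partner may not be told apart. Between Sdhaf4 and its nearest tested neighbours the change was not shared: Fam135a, 5.12 kb away, had a log2 fold change of -0.01 (adjusted p = 0.890) and Smap1 one of 0.04 (adjusted p = 0.436). Beside Sdhaf1, Syne4, 2.36 kb away, rose by 0.51 (adjusted p = 3.38e-05) and Alkbh6 had a log2 fold change of 0.18 (adjusted p = 0.104).

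In complex III with cytochrome c, 7 of 13 genes were higher and 2 lower, with a median log2 fold change of 0.11. Of the 4 core and catalytic subunits 3 were higher and none lower, with a median log2 fold change of 0.33. Of the 5 small subunits 1 was higher and 2 were lower, and the median was -0.06. Whether the 2 sets of subunits differed from each other was not tested.

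Uqcrc1, a core protein on the matrix side, stood at 348, 375 and 344 TPM in WT and rose to 485, 511 and 481 TPM in KO libraries (log2 fold change 0.47, SE 0.044, adjusted p = 1.14e-05). Cyc1, the cytochrome c1 that hands electrons to cytochrome c, stood at 284, 313 and 299 TPM and rose to 370.1, 398 and 377 TPM (0.36, SE 0.049, adjusted p = 1.41e-04). The groups lay apart for both, as they did for Uqcrc2, the other core protein, which rose by 0.30 (SE 0.042, adjusted p = 1.70e-04) from 209 ± 9.0 to 257 ± 7.88 TPM. Uqcrfs1, the Rieske iron-sulfur protein, had a log2 fold change of 0.09 (SE 0.042) and missed the threshold (adjusted p = 0.0781).

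Cycs, the somatic cytochrome c that carries electrons on to complex IV, stood at 113, 106 and 111 TPM in WT and at 139, 141 and 135 TPM in KO libraries, a rise of 0.33 (SE 0.043, adjusted p = 9.07e-05). Its KO libraries were all above the WT libraries. Its coding sequence has 3 near-identical pseudogenes, copies with at least 95% identity over at least 50% of it, to which short reads can also align. Uqcc1 and Uqcc2, which bind newly made cytochrome b, rose too. Uqcc1 stood at 30.4, 31.5 and 31.3 TPM in WT and at 39.7, 39.6 and 40.9 TPM in KO libraries (0.37, SE 0.040, adjusted p = 3.01e-05), and Uqcc2 rose by 0.29 (SE 0.044, adjusted p = 2.60e-04). Uqcc3, which acts at a later step of the same assembly, had a log2 fold change of 0.01 (adjusted p = 0.946).

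Among the small subunits, the most abundant was Uqcrh, the hinge protein that helps cytochrome c1 to meet cytochrome c. It stood at 488, 447 and 455 TPM in WT and 437, 443 and 453 TPM in KO libraries, and the groups overlapped (-0.06, SE 0.046, adjusted p = 0.291). Uqcrb, a ubiquinone-binding subunit, stood at 352, 349 and 377 TPM in WT and 319, 334 and 336 TPM in KO libraries, a log2 fold change of -0.12 (SE 0.043, adjusted p = 0.0309). That call was lost without WT replicate 1 (adjusted p = 0.0566), without WT replicate 3 (0.137) and without KO replicate 1 (0.110).

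Uqcrq, another small subunit beside the ubiquinone site, stood at 146, 123 and 118 TPM in WT and at 82.8, 117 and 83.5 TPM in KO libraries. KO replicate 2 lay just under the lowest WT library and the other KO libraries far below it. The log2 fold change of -0.45 (SE 0.135, adjusted p = 0.0146) reached -0.65 without KO replicate 2, and the call was lost without WT replicate 1 (adjusted p = 0.0555), KO replicate 1 (0.0521) or KO replicate 3 (0.0564). Uqcr11 rose by 0.11 with an adjusted p of 0.0495, next to the threshold, and kept the call in 4 of 13 alternative settings.

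**Figure D3:**
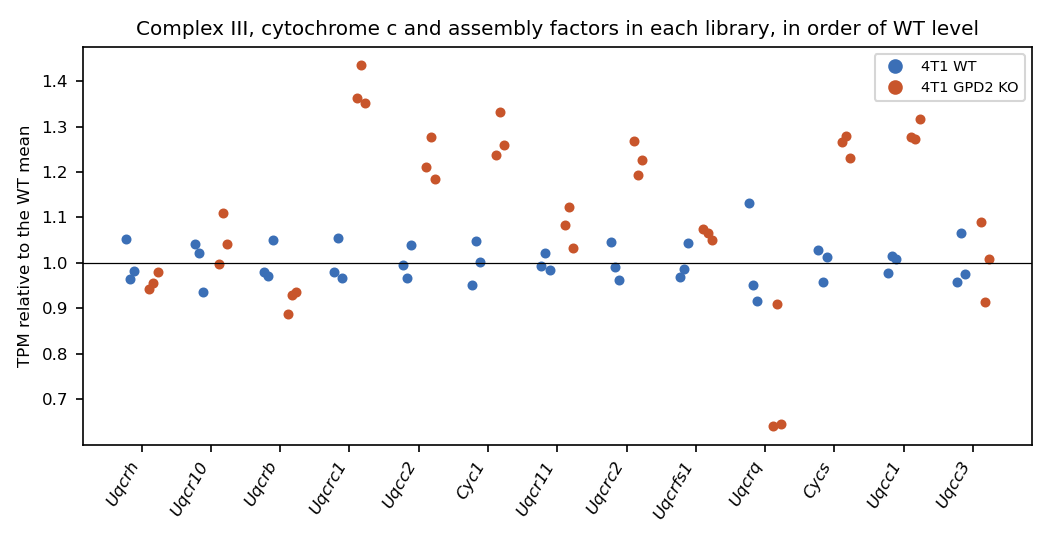
TPM of each complex III gene, cytochrome c and the Uqcc assembly factors in each library, divided by the WT mean of that gene, in order of WT level. The KO libraries of Uqcrc1, Uqcrc2, Cyc1, Cycs, Uqcc1 and Uqcc2 sit above all WT libraries, and Uqcrq shows KO replicate 2 well above the other KO libraries.

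In complex IV, 13 of 22 genes were higher and 5 lower, with a median log2 fold change of 0.16. Among its 13 subunits 7 were higher and 2 lower, and 4 missed the threshold. Cox5a, a subunit on the matrix side, stood at 309.6, 323 and 336 TPM in WT and rose to 448, 505 and 474 TPM in KO libraries (0.56, SE 0.056, adjusted p = 1.72e-05). It had the largest rise among the subunits apart from Cox6a2. Cox4i1, the most abundant and an early partner of the mtDNA-encoded core, fell. It stood at 852, 869 and 866 TPM in WT and at 755, 802 and 769 TPM in KO libraries (-0.15, SE 0.039, adjusted p = 0.00625). The groups lay apart for both genes, in opposite directions.

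Cox6b1, on the side of the membrane that faces cytochrome c, stood at 606, 589 and 636 TPM in WT and rose to 789.5, 829.9 and 792 TPM in KO libraries (0.40, SE 0.046, adjusted p = 4.47e-05). Cox8a, a small membrane subunit, stood at 734, 749 and 743 TPM and rose to 826, 819 and 835 TPM (0.16, SE 0.034, adjusted p = 0.00234). Of the other isoforms of these subunits that were listed for comparison, Cox4i2, Cox6b2, Cox7a1, Cox8b and Cox8c, none has a row in the table and they were not analysed here. Cox5b, Cox6c and Cox7c had log2 fold changes of 0.03, 0.03 and -0.04 and did not pass.

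The subunit 7B pair held the largest change of the 60 genes. Cox7b2 is a paralog of Cox7b that is known mainly from testis in humans. It stood at 18.3, 14.6 and 16.8 TPM in WT and at 0.315, 0.288 and 0.618 TPM in KO libraries, from 254, 219 and 226 counts and from 5, 4 and 9 counts. The log2 fold change was -5.18 (SE 0.251, adjusted p = 1.58e-07), a 36.3-fold lower level, and the groups lay far apart. On the log2 scale of TPM with a pseudocount of 1 the value was -3.64, since the KO levels are below that pseudocount. Cox7b, the widely expressed isoform, stood at 272, 266 and 279 TPM in WT and rose to 353, 385 and 344 TPM (0.41, SE 0.052, adjusted p = 8.77e-05).

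Cox7b2 thus made up 5.73% ± 0.558 of the summed TPM of the pair in WT and 0.115% ± 0.0567 in KO cells (SD, n = 3 each). The sum itself went from 289 ± 7.29 to 361 ± 21.3 TPM, so that it was larger in the cells with less Cox7b2. An exact permutation test of the share, two-sided, gave p = 0.10, the smallest that 3 against 3 libraries allow, and p = 0.10 after adjustment over the 9 isoform shares tested. Cox7b has 2 near-identical pseudogenes, and Cox7b2 has none.

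Cox7b2 (Entrez 78174) lies on the minus strand of chromosome 5 from 71442824 to 71548205, and no other annotated gene shares its exon bases. The nearest tested genes are far from it. Commd8, 608 kb away, had a log2 fold change of -0.06 (adjusted p = 0.219), Atp10d, 655 kb away, rose by 0.38 (adjusted p = 7.38e-05), and Gnpda2, 1850 kb away on the other side, had one of -0.62 (adjusted p = 0.00112). All 3 changed by less than Cox7b2, which is described here because its change was the largest of the 60 genes. Whether a cause was shared with the neighbours was not tested.

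The subunit 6A pair moved the other way. Cox6a2, the isoform of heart and skeletal muscle, stood at 3.01, 2.38 and 2.03 TPM in WT and rose to 10.7, 11.5 and 10.1 TPM in KO libraries, from 51, 44 and 34 counts to 166, 191 and 171 counts (log2 fold change 2.10, SE 0.176, adjusted p = 5.39e-06). Cox6a1, the isoform of most other tissues, stood at 569, 640.3 and 549 TPM in WT and 635, 662 and 671 TPM in KO libraries. Its rise of 0.16 (SE 0.058, adjusted p = 0.0292) came with overlapping TPM, and the call was lost without WT replicate 1, WT replicate 3, KO replicate 2 or KO replicate 3 (adjusted p = 0.0862, 0.104, 0.0851 and 0.0985).

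The share of Cox6a2 in the pair went from 0.421% ± 0.0898 in WT to 1.62% ± 0.121 in KO cells, and the exact permutation test gave p = 0.10, adjusted p = 0.10. Even in KO cells the pair therefore consisted almost wholly of Cox6a1. Cox6a2 (Entrez 12862) lies on the minus strand of chromosome 7 from 128205435 to 128206387. Of its tested neighbours, Armc5, 31.0 kb away, rose by 0.54 (adjusted p = 3.04e-05), and 9130023H24Rik had a log2 fold change of 0.07 (adjusted p = 0.623).

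The 7A pair was balanced in WT cells. Cox7a2, the common isoform of the subunit, stood at 253, 239 and 278 TPM in WT and rose to 295, 329.8 and 306 TPM in KO libraries (0.28, SE 0.065, adjusted p = 0.00424). Cox7a2l, a related protein, is known for joining complex III to complex IV in supercomplexes, a role not tested in these cells. Cox7a2l stood at 259.5, 241 and 254 TPM and at 246, 245 and 259 TPM, and the groups overlapped (-0.01, SE 0.045, adjusted p = 0.877). The share of Cox7a2 went from 50.5% ± 1.59 to 55.4% ± 1.75 (exact permutation p = 0.10, adjusted p = 0.10).

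**Figure D4:**
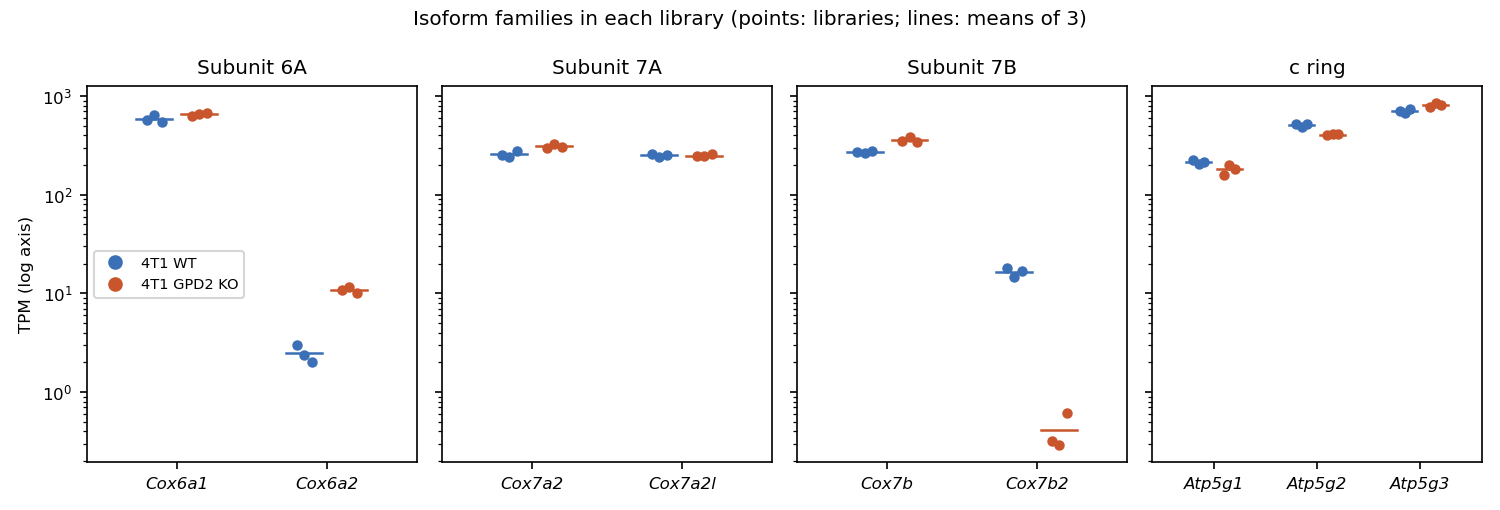
TPM of each measured isoform of the subunit 6A, 7A, 7B and c ring families in each library (logarithmic axis; points are libraries, lines are the means of 3). Cox6a2 rises and Cox7b2 falls by far more than any other isoform, while their partners Cox6a1 and Cox7b are at 549 to 671 TPM and 266 to 385 TPM over all libraries.

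Markers of the tissues in which these isoforms are known to be used were looked at beside them. Of 12 striated muscle markers 8 are in the table and 7 were tested, of which 2 were higher and 2 lower. Their summed level was 21.4 to 23.6 TPM in WT and 19.5 to 25.2 TPM in KO libraries, so it overlapped. Pygm, muscle glycogen phosphorylase, was higher (0.154 to 0.629 TPM, log2 fold change 1.96). Des, the muscle filament protein desmin, was lower (1.30 to 0.256 TPM, -2.30), and both were at very low levels. Of the more abundant markers, Tnnt2 rose from 11.1 to 14.4 TPM (0.38) and Tnnt3 fell from 6.09 to 2.65 TPM (-1.17). Of 12 male germ cell markers only Tex101, a surface protein of testicular germ cells, is in the table, and it rose from 13.2 to 126 TPM (log2 fold change 3.25, adjusted p = 1.37e-10) in the cells in which Cox7b2 fell.

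The 9 assembly factors of complex IV were all called, 6 higher and 3 lower, with a median log2 fold change of 0.22. Of all genes tested, 66.8% were called, 33.5% higher and 33.3% lower. Cox14, which regulates the synthesis of the first mtDNA-encoded subunit, stood at 51.6, 45.0 and 49.3 TPM in WT and rose to 62.9, 70.9 and 65.5 TPM in KO libraries (0.45, SE 0.074, adjusted p = 4.25e-04). Cox18, which inserts the second mtDNA-encoded subunit into the membrane, stood at 45.5, 45.6 and 46.0 TPM and rose to 59.8, 57.7 and 63.7 TPM (0.40, SE 0.046, adjusted p = 3.86e-05). Both had every KO library above every WT library. Cox19, of the copper pathway, stood at 42.9, 41.5 and 41.4 TPM and rose to 56.0, 53.8 and 53.2 TPM (0.38, SE 0.054, adjusted p = 1.96e-04), again without overlap.

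Cox17, the copper chaperone that hands the metal to the assembly line and the most abundant of the 9, stood at 181, 195 and 180.0 TPM in WT and at 216, 237 and 194 TPM in KO libraries. The lowest KO library lay below the highest WT library. Its rise of 0.22 (SE 0.071, adjusted p = 0.0201) was lost without WT replicate 1, WT replicate 3 or KO replicate 2 (adjusted p = 0.0623, 0.0565 and 0.0703). Cox10 and Cox15, the enzymes that turn heme B into heme O and then into heme A, rose by 0.22 (SE 0.045, adjusted p = 0.00192) and 0.13 (SE 0.046, adjusted p = 0.0257), and the call of Cox15 held in 7 of 13 alternatives.

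The 3 that fell share large parts of their exons with another gene, which limits what their counts stand for. Among those that rose, Cox10, Cox15 and Cox17 share smaller parts, up to 1.61%, 9.0% and 4.45% of their exon bases with 1 gene. Cox20, a chaperone of the second mtDNA-encoded subunit, stood at 48.8, 38.0 and 48.1 TPM in WT and at 31.5, 31.1 and 32.2 TPM in KO libraries (-0.51, SE 0.107, adjusted p = 0.00217), and the groups did not overlap. Of its exon bases 91.1% are shared with Hnrnpu on the opposite strand, which was at 556 and 534 TPM (log2 fold change -0.05, adjusted p = 0.368). Cox11, which delivers copper to the catalytic core, stood at 13.6, 12.7 and 12.7 TPM in WT and at 10.6, 11.2 and 11.2 TPM in KO libraries (-0.23, SE 0.066, adjusted p = 0.0112). It shares 48.3% of its exon bases with Tom1l1 on the opposite strand, which fell by 0.82 on the log2 scale (adjusted p = 4.59e-06). The part of the overlaps in the values of Cox20 and Cox11 was not tested.

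Cox16, which helps to mature the second mtDNA-encoded subunit, stood at 30.7, 29.2 and 28.5 TPM in WT and at 12.2, 24.2 and 23.0 TPM in KO libraries. KO replicate 1 was far below the other KO libraries in TPM, and less so in counts, which were 802, 857 and 773 in WT and 471, 625 and 627 in KO libraries. Its count per TPM was -0.77 on the log2 scale in KO replicate 1 against -1.45 and -1.40 in the other KO libraries. The deposited counts and TPM of Cox16 thus stand in a different ratio in KO replicate 1, for a reason that is not known. From the counts the log2 fold change was -0.43 (SE 0.089, adjusted p = 0.00196). Of its exon bases 56.8% are shared with Gm20498 on the same strand.

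In complex V, 7 of 17 genes were higher and 3 lower, with a median log2 fold change of 0.08. Of the 5 F1 subunits, which form the catalytic head and its central stalk, 1 was called, and their log2 fold changes ranged from 0.03 to 0.17. Of the 10 subunits of the membrane part and the outer stalk, 5 were higher, 3 lower and 2 did not pass, with a range from -0.53 to 0.45. The difference between both parts was not tested. Atp5b, the catalytic beta subunit and the most abundant of the 60, stood at 1711, 1747 and 1726 TPM in WT and at 1813, 1784 and 1813 TPM in KO libraries. Its change of 0.06 (SE 0.024, adjusted p = 0.0421) was called, without overlap of the groups, but the call held in 1 of 13 alternatives and the adjusted p ranged from 0.0422 to 0.196 over them. It was lost when any one library was left out. Atp5a1, the alpha subunit, was at 1161 ± 11.5 and 1188 ± 10.5 TPM (log2 fold change 0.03, adjusted p = 0.255).

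In the membrane part, Atp5l (subunit g) and Atp5h (subunit d of the outer stalk) moved furthest. Atp5l stood at 515, 494 and 553 TPM in WT and rose to 694, 761 and 677 TPM in KO libraries (0.45, SE 0.062, adjusted p = 1.32e-04). Atp5h stood at 368, 406 and 346 TPM in WT and at 246, 269 and 258 TPM in KO libraries (-0.53, SE 0.060, adjusted p = 3.57e-05). The groups were apart for both. Atp5l has 7 near-identical pseudogenes, the most of any of the 60 genes, and Atp5h has 3. Their part in these values was not tested.

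Atp5o, the OSCP subunit that ties the outer stalk to the head, stood at 447, 437 and 443 TPM in WT and rose to 532, 545 and 542 TPM in KO libraries (0.29, SE 0.037, adjusted p = 8.57e-05). Atp5k (subunit e), which pairs with subunit g where ATP synthases meet as dimers, stood at 509, 466 and 506 TPM and rose to 572, 609 and 534 TPM (0.21, SE 0.058, adjusted p = 0.00882). Atp5j, of the outer stalk, rose by 0.16 (adjusted p = 0.00922). So 3 subunits of the outer stalk, Atp5o, Atp5j and Atp5h, were called in different directions, and the fourth, Atp5f1, had a log2 fold change of 0.02 from the counts (adjusted p = 0.579). The TPM of Atp5f1, 308 ± 4.32 in WT and 334 ± 18.01 in KO cells, did not overlap between the groups, so for this gene the deposited counts and TPM differ.

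**Figure D5:**
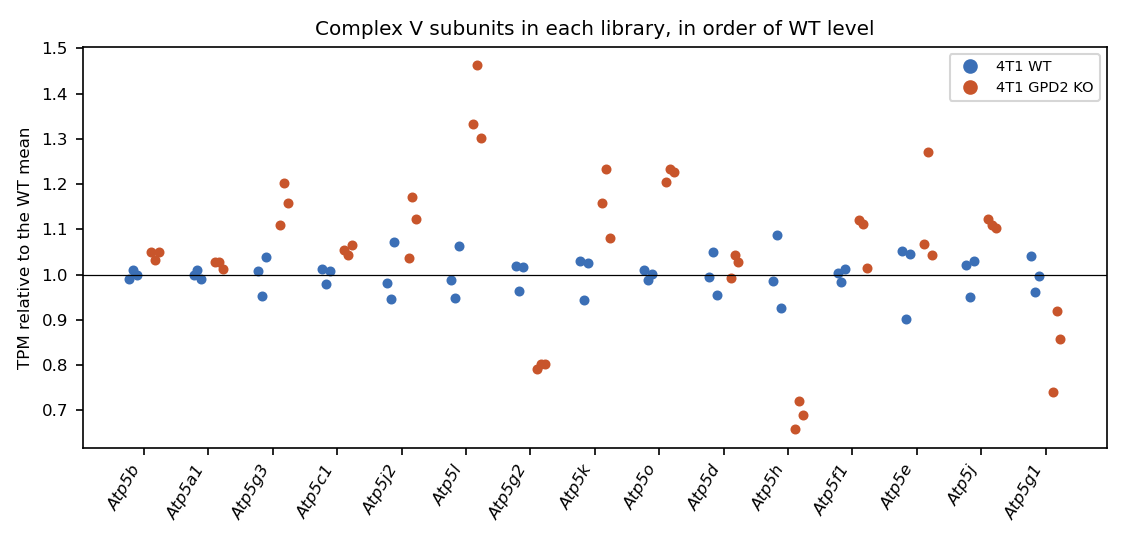
TPM of each complex V subunit in each library, divided by the WT mean of that gene, in order of WT level. The libraries of Atp5b, Atp5a1 and Atp5c1 lie close to the line at 1, Atp5l, Atp5o and Atp5g3 lie above 1 in all KO libraries, and Atp5h, Atp5g2 and Atp5g1 lie below it.

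The 3 genes for the c subunit, shown above, split. Atp5g3 stood at 712, 674 and 734 TPM in WT and rose to 785, 850.2 and 819 TPM in KO libraries (0.21, SE 0.049, adjusted p = 0.0037). Atp5g2 stood at 520.3, 492 and 518 TPM and fell to 404, 409 and 409.5 TPM (-0.32, SE 0.041, adjusted p = 8.03e-05). Atp5g1 stood at 224, 207 and 215 TPM and fell to 159, 198 and 184 TPM (-0.25, SE 0.076, adjusted p = 0.0158). None of the 3 had overlapping groups, but the call of Atp5g1 was lost without WT replicate 1 (adjusted p = 0.0572), and its change was -0.16 without KO replicate 1. Atp5g1 has 1 near-identical pseudogene and Atp5g2 has 2.

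The sum of the 3 hardly moved. It was 1432 ± 51.7 TPM in WT and 1406 ± 55.2 TPM in KO cells, a ratio of 0.982, and the libraries of the groups overlapped. Within it, Atp5g3 went from 49.3% ± 0.615 to 58.2% ± 0.186, Atp5g2 from 35.6% ± 0.270 to 29.0% ± 0.949 and Atp5g1 from 15.03% ± 0.378 to 12.8% ± 0.910. Each of these shares separated the groups completely and had p = 0.10 in the exact permutation test, the smallest that 3 against 3 allow (adjusted p = 0.10).

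The 100 bases before the annotated start of each c subunit gene follow (RefSeq, GRCm38.p6, each gene on the minus strand and read in its own direction). They are shown because these 3 genes encode one mature protein and their RNAs went different ways. The part of the promoters in this was not tested. Capitals mark a match to one of 4 searched motifs.
Atp5g1, chr11:96075632-96075731: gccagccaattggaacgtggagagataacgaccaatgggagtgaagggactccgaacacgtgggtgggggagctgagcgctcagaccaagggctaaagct
Atp5g2, chr15:102671048-102671147: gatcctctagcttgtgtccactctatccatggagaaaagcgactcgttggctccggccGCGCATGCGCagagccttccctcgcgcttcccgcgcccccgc
Atp5g3, chr2:73911327-73911426: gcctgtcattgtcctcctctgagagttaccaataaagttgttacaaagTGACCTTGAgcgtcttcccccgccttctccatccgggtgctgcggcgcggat
Atp5g2 holds the NRF1 motif on both strands from 42 bases before the start, Atp5g3 the ERRA motif on the other strand 52 bases before it, and Atp5g1 none of the 4 in this window.

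The motifs were those of factors known to act on nuclear genes of respiration: NRF1 (GCGCATGCG), the ETS family with GABPA (CCGGAAGT), YY1 (AAGATGGCG) and ERRA (TCAAGGTCA). They were searched on both strands from 250 bases before to 50 bases after each start, where RefSeq had an entry for 49 of the 60 genes and for 9585 of the genes tested, and no matches of different motifs overlapped in the 49. The NRF1 motif was in 7 of the 49 (14.3%, against 4.25% of all tested genes with an entry), Atp5g2, Atp5k, Atp5l, Cox6a1, Cycs, Uqcr11 and Uqcrc1. With 1 more base at its end, the form that was searched first, it was in 4 of the 49 (8.2% against 2.41%). The ETS motif was in 8 (16.3% against 9.66%), the YY1 motif in 4 (8.2% against 3.71%) and the ERRA motif in 2, Atp5g3 and Sdhd (4.1% against 0.28%).

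The RNAs of some of these factors changed as well, and whether the factors acted on the genes above was not tested. Of 20 regulators of nuclear respiratory genes that were tested, 9 were higher, 4 lower and 7 did not pass. That is 65.0% called, against 66.8% of all genes tested. Esrra, which encodes ERRA, rose from 29.7 to 43.1 TPM (log2 fold change 0.54, adjusted p = 9.44e-06), and Ppargc1b, a coactivator that works with it, from 7.07 to 11.2 TPM (0.67, adjusted p = 2.95e-05). Yy1 rose by 0.26 (adjusted p = 1.71e-04) and Nrf1 by 0.15 (adjusted p = 0.0178), whereas Gabpa had a log2 fold change of -0.01 (adjusted p = 0.880). Genes that maintain and transcribe mtDNA went both ways. Polg, of its polymerase, rose by 0.41 (adjusted p = 2.78e-05), whereas Polg2, of the same polymerase, had a log2 fold change of -0.36 (adjusted p = 0.00739). Twnk rose by 0.18 (adjusted p = 0.00289), and Polrmt had a log2 fold change of 0.08 (adjusted p = 0.24). Tfb1m and Tfb2m fell by 0.44 and 0.28 (adjusted p = 0.00103 and 2.19e-04), and Tfam had a log2 fold change of -0.06 (adjusted p = 0.248).

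Complexes III to V also need subunits from mtDNA, and none of the 13 protein genes of mtDNA has a row in the table, so that side was not analysed here. Complex I, the remaining respiratory complex, had 37 subunits tested, of which 16 were higher, 7 lower and 14 did not pass. So 62.2% were called, against 66.8% of all genes tested, and the median log2 fold change was 0.11. That median is close to the 0.10 of the 60 genes of complexes II to V. All of these comparisons use the same 6 libraries.

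Assembly factors and related proteins under other names were counted separately, and Higd1a among them is also in the list of regulators above. Of 28 tested, 10 were higher and 6 lower, and 12 missed the threshold (median log2 fold change 0.01). That is 57.1% called, against 66.8% of all genes tested. Hccs, the lyase that attaches heme to cytochromes c and c1, rose from 37.3 to 168 TPM (log2 fold change 2.17, adjusted p = 6.46e-10), well beyond the rises of Cycs and Cyc1 themselves. Lyrm7, a chaperone of the Rieske protein of complex III, fell by 0.72 (adjusted p = 0.00268), Bcs1l, which moves it across the membrane, by 0.42 (adjusted p = 4.20e-04), and Ttc19, which clears its fragments, by 0.45 (adjusted p = 2.98e-05). For complex IV, Lrpprc, which stabilises mtDNA-encoded RNAs, rose by 0.43 (adjusted p = 3.60e-05), Surf1 by 0.27 (adjusted p = 6.82e-04) and Sco2, a copper chaperone, by 0.31 (adjusted p = 0.00188). Coa5, Coa7 and Higd1a rose by 0.35, 0.20 and 0.67 (adjusted p = 4.9e-05, 0.0178 and 1.63e-05). Cmc2 fell by 0.47 (adjusted p = 4.82e-05), and Coa3 had a log2 fold change of -0.25 (adjusted p = 6.79e-04). For complex V, Atpaf1 rose by 0.24 (adjusted p = 0.0040) and Atpaf2 had a log2 fold change of -0.17 (adjusted p = 0.0092). Atpif1, the inhibitor of ATP synthase, had a log2 fold change of -0.09 (adjusted p = 0.114).

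The 2 genes matched by symbol only were Atp5s and Atp5sl. Atp5s, the low-abundance coupling factor B, was at 4.30 ± 0.310 and 4.36 ± 0.289 TPM (log2 fold change 0.02, adjusted p = 0.887). Atp5sl, which despite its name takes part in building complex I, stood at 22.5, 21.4 and 22.8 TPM in WT and rose to 31.6, 32.2 and 30.3 TPM in KO libraries (0.38, SE 0.048, adjusted p = 7.94e-05).

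Keratins, the defining filament proteins of epithelial cells, were abundant. Of 8 epithelial markers the 3 in the table, Krt8, Krt18 and Krt7, summed to 1709 to 1805 TPM in WT and 987 to 1034 TPM in KO libraries, and all 3 were lower in KO cells; the other 5 were not analysed here. Markers of other cell types were low in both groups: the 4 of 8 macrophage and myeloid markers in the table summed to 24.0 to 27.3 and 17.1 to 18.4 TPM, the 2 of 6 fibroblast markers to 39.7 to 40.8 and 18.9 to 23.2 TPM, the 2 of 6 lymphocyte markers to 1.09 to 1.34 and 1.78 to 2.25 TPM, and the 1 of 4 endothelial markers to 11.1 to 11.6 and 1.68 to 2.10 TPM. The part of these shifts in the values above was not tested. In bulk RNA of this kind, fewer cells that express a gene and less RNA per cell cannot be told apart.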

How the data were processed

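Strand-specific mRNA libraries were sequenced in paired ends. Per the labels and the methods, the authors used Trimmomatic 0.38 for trimming, HISAT2 2.1.0 for alignment to the mm10 build and StringTie 1.3.4d for quantification. The authors deposited unnormalized read counts per gene and TPM values computed per library. The deposited FPKM served only in alternatives, for the isoform shares and for the gene lengths of the length-trend correction. The log2 normalized values, p-values and a signed fold score, which the authors also deposited, were not used. The sources used here do not name a strand setting for the counting.

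Groups followed the labelled genotype. Counts were tested with edgeR 4.0.16 in R 4.3.3 (TMM, filterByExpr with a minimum count of 10, quasi-likelihood test, Benjamini-Hochberg adjustment over all genes tested, threshold 0.05). Standard errors came from the quasi-likelihood F. Isoform shares of TPM were compared by exact permutation. DESeq2 1.42.0 and limma 3.58.1 on log2(TPM + 1) served as alternatives. The workflow was tested on simulated data. Replicates of a group differed by more than sampling noise (chi-square per degree of freedom 17.1 to 25.7), so all 6 libraries were kept. TMM factors lay between 0.992 and 1.01.

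The genes and lists were chosen with earlier results of these data known. Genes named with values per library were Gpd2, the subunits of complex II, the 3 largest rises and falls among called genes and the most abundant gene in each part of a complex, and all measured isoforms. Positions, exons and coding sequences came from GENCODE vM21 and promoters from RefSeq. Paralogs were aligned with Biopython 1.88 and pseudogenes were searched with BLAST 2.17.0.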

Additional observations from a re-analysis of the deposited data

How the results depend on the processing

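The 13 alternative fits comprised DESeq2 size factors, the DESeq2 test, limma on TPM with a pseudocount of 1 or 0.1, no filter on low counts, a minimum count of 100, a replicate block and each library left out in turn (34 to 39 genes of complexes II to V called, 7433 to 7783 over the whole table). Of the 42 called genes, 34 kept the call in all 13 and 8 lost it in at least 1 (Uqcrb, Uqcrq, Uqcr11, Cox6a1, Cox15, Cox17, Atp5b and Atp5g1), while 5 uncalled genes gained one (Uqcrfs1, Atp5c1, Atp5e, Atp5f1 and Atp5j2), and no called gene changed direction. Of the genes not called, Sdha, Uqcc3, Cox5b, Cox6c, Cox7a2l, Cox7c and Atp5s had values on both sides of 0. A correction for a length trend changed the direction of no called gene named with values per library and was not tested for calls. The DESeq2 test and the other alternatives left the count for each complex within 1.5 times of the main count. A stricter rule moved it. With a fold of at least 1.5 as well, 4 of the 60 genes were called (2 in complex II, 0 in complex III, 2 in complex IV and 0 in complex V) and 2390 of all genes (1040 higher and 1350 lower). With the thresholds of the study, 3 were called (1, 0, 2 and 0) and 1046 of all genes (467 higher and 579 lower). These rules add a fold limit, and 38 of the 42 called genes lie below the first of them. The median log2 fold change of complex II ranged from -0.0861 (without WT replicate 3) to -0.0198 (without WT replicate 2) over the fits that left out 1 library. Same-numbered libraries did not deviate together (correlations 0.108, 0.138 and -0.00066), so the numbers were not read as pairs. With a replicate block 40 of the 60 genes were called (27 higher and 13 lower; 5, 8, 18 and 9 by complex), 7974 over the whole table, and the log2 fold change of Gpd2 was -2.38. With 3 libraries a group, an exact test of a single share cannot go below p = 0.10, whatever the size of the difference. Near-identical pseudogenes (31 copies of 14 genes) and opposite-strand exons (19 genes) limit single values. So does a differing count per TPM, with a shift of over 0.05 on the log2 scale for 4 of the 60 and for 3.93% of all genes. The NRF1 count of 7 genes was 4 with the longer motif, a form replaced after its count was seen.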

Other observations

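Hccs, which lies on the X chromosome, had the largest rise among the assembly factors and related proteins listed under other names. Of its 4 nearest tested neighbours 3 were higher too, where 33.5% of all genes tested were called higher. Arhgap6, 7.09 kb away, rose from 15.7 to 25.3 TPM (log2 fold change 0.69, adjusted p = 1.95e-06 in edgeR's quasi-likelihood test). Mid1, a ubiquitin ligase gene 365 kb away on the other side, rose from 3.69 to 144 TPM (5.29, adjusted p = 2.20e-08). Msl3, 637 kb away, rose from 47.8 to 74.8 TPM (0.65, adjusted p = 2.84e-07), whereas G530011O06Rik had a log2 fold change of -0.45 (adjusted p = 0.118). These genes were chosen for their place beside Hccs after its value was seen, and the KO libraries are from 1 clone.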
